A study of Mus musculus with 12 samples.

Results

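The carbonic anhydrase family was followed through the kidney cortex of mice that carry a constitutively active HIF1α. The 10 members were Car2, Car3, Car4, Car5b, Car8, Car9, Car12, Car13, Car14 and Car15, taken by gene symbol from the 37681 genes of the count table, and all 10 had enough reads to be tested. The TG+ group was 3 male TRACK mice (γ-HIF1αM3), in which mutant HIF1α is made in renal proximal tubules from a transgene also named GGT-HIF1aM3, and the TG- group was 3 male wild-type littermates. Both groups were C57BL/6, 18 months old and untreated. Each mouse gave 2 libraries of a thin outer slice of cortex, 1 from each kidney, and the reads of both kidneys were summed, so that n = 3 mice per group. The TG+ mice are 43-29, 43-49 and 43-75, and the TG- mice are 43-26, 43-50 and 43-76. The totals lay between 48052131 and 60506785 reads per mouse, and no 2 libraries held identical counts.

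Carbonic anhydrases are zinc enzymes that interconvert carbon dioxide and water with bicarbonate and a proton. In the kidney they serve the recovery of filtered bicarbonate in the proximal tubule and the secretion of acid or base by the intercalated cells of the collecting duct. The members differ mainly in where the enzyme sits. Car2, Car3 and Car13 encode cytosolic enzymes and Car5b a mitochondrial one. Car4 and Car15 encode enzymes held at the outer cell surface by a lipid anchor, and Car9, Car12 and Car14 encode enzymes that span the plasma membrane with the catalytic part outside. Car8 encodes a relative that has lost enzyme activity. Car9 is a known target of HIF1α, which binds a short DNA core, the hypoxia response element.

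The DNA just upstream of the member genes is shown to set the core letters of that element beside the mRNA changes. The letters searched were ACGTG and GCGTG, which on the other strand read CACGT and CACGC, in the 250 bases before the RefSeq start of each gene (GRCm38.p6). Overlapping matches on both strands were each counted. Promoters were found for 6 of the 10 members, Car4, Car5b, Car9, Car12, Car14 and Car15. Of 32851 mouse promoters of this length, 38.6% held at least 1 match and 2.58% held at least 4. Car9 and Car14 held 1 match each, Car5b held 5, and Car4, Car12 and Car15 held none. Capitals mark the matches below, and each sequence is written along the strand of its gene. For Car9 the last 30 bases before the start are shown (chr4:43506996-43507025, + strand), and for Car14 likewise (chr3:95904686-95904715, - strand). For Car5b (chrX:164028011-164028260, - strand) and Car4 (chr11:84957504-84957753, + strand) all 250 bases are shown.
Car9: ctatttccgatgCACGTacagcccgtccac
Car14: agcccaggcaccacccccctcctCACGTac
Car5b: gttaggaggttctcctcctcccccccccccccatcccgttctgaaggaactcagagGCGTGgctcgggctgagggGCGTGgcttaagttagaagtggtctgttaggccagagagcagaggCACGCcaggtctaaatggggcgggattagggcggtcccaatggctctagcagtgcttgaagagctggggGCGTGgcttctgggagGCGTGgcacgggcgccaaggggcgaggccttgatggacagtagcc
Car4: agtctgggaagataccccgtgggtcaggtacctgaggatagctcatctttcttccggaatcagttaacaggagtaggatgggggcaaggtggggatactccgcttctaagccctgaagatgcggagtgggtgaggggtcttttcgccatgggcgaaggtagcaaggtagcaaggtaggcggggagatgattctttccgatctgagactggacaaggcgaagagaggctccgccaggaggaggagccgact
The match upstream of Car9 begins 18 bases before the RefSeq start, and that of Car14 begins 7 bases before it. GENCODE M21 starts some of these genes further upstream, so that 60 of the 250 bases of Car9, with the match, 6 of those of Car14 and 178 of those of Car15 lie inside the GENCODE gene. A match is a description of the letters and was not tested as a binding site.

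Transcripts of Car9 increased 10.1-fold in TG+ kidney cortex, and those of Car2 increased by a smaller amount. Those of Car4 decreased to 0.446 of the TG- level, with a 95% interval of 0.367 to 0.542. The other 7 members did not pass the test. A gene was called where the p of the edgeR quasi-likelihood test, adjusted over 19399 genes by Benjamini and Hochberg's method, was below 0.01 and the fold change was above 2 or below 0.5. At that threshold 1 of 10 members was higher, Car9, where 3.77% of all genes tested were. Lower was also 1 of 10, Car4, where 0.211% of all genes were. With the adjusted p alone, 2 of 10 members were higher, Car9 and Car2, against 7.91% of all genes, and 1 was lower, Car4, against 4.25%. The median log2 fold change of the 10 members was 0.18, and that of all genes tested was 0.01. The values of the 3 TG+ mice did not overlap those of the 3 TG- mice for 5 members (Car2, Car4, Car9, Car12 and Car13), and the same held for 44.2% of all genes tested. With 3 against 3 mice, the exact permutation test of a single gene cannot go below a 2-sided p of 0.1, and each of these 5 members reached that value.

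**Figure D1:**
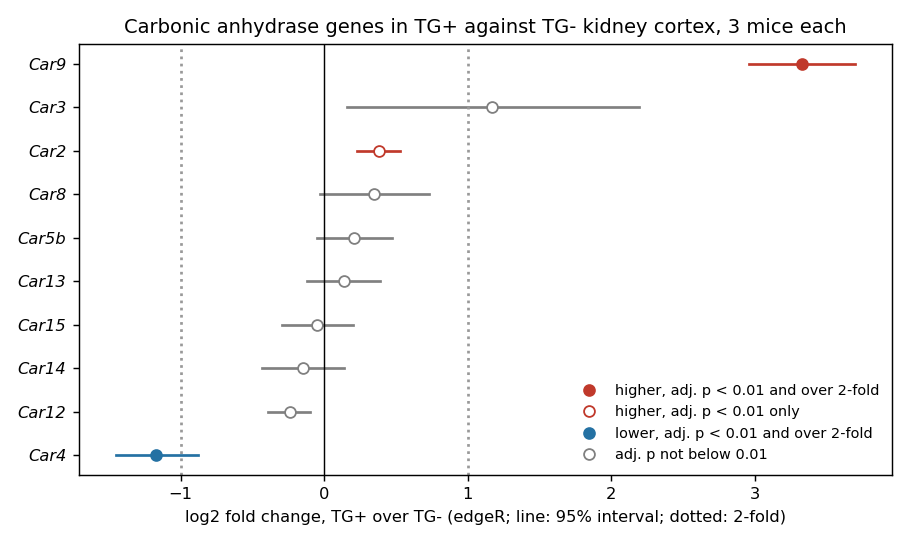
Log2 fold change of each carbonic anhydrase gene, TG+ over TG-, with its 95% interval from edgeR (3 mice per group; dotted lines mark 2-fold). Car9 stands at 3.33 and Car4 at -1.17, and the interval of Car2 lies between 0.23 and 0.53.

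The cell surface members moved in different directions. Car9 (ENSMUSG00000028463, chromosome 4, 43506966 to 43513729 in GRCm38) was at 166, 122 and 155 CPM in the TG+ mice, where CPM are reads scaled to a library of 1 fixed, normalized size. In the TG- mice it was at 11.7, 14.8 and 17.6 CPM. All TG+ mice were far above all TG- mice, with means of 148 ± 23.1 and 14.7 ± 2.95 CPM (SD, n = 3). The log2 fold change of Car9 was 3.33 (SE 0.16, 95% interval 2.96 to 3.70, adjusted p = 2.126e-05 by edgeR). The lowest TG- mouse still held 598 reads of Car9, so the gene was read in the wild-type cortex too. Car9 shares 214 exon bases with Gm12454, an antisense gene on the opposite strand, and the handling of strand is not given in the sources used here, so their reads cannot be told apart there. Gm12454 itself was at 13.2 to 17.4 CPM in TG+ and 3.06 to 4.03 CPM in TG- mice.

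Car4 (ENSMUSG00000000805, chromosome 11, 84957786 to 84966044 in GRCm38) encodes the lipid-anchored enzyme of the proximal tubule brush border. It was at 95.3, 98.3 and 91.2 CPM in TG+ mice and at 179, 257 and 203 CPM in TG- mice. The TG+ mice were close to each other and all below the lowest TG- mouse. The means were 94.95 ± 3.55 CPM in TG+ and 213 ± 39.8 CPM in TG- (SD, n = 3), a level 55.4% lower, with a log2 fold change of -1.17 (SE 0.12, 95% interval -1.45 to -0.88, adjusted p = 0.0006115 by edgeR). Proximal tubule genes moved the same way. Of 15 markers of that segment, 14 had a log2 fold change below 0, 8 of them with an adjusted p below 0.01, against 4.25% of all genes tested that were lower by it, and the median was -0.60. Their summed level was 31080 to 34400 CPM in TG+ and 41660 to 44650 CPM in TG- mice. Slc22a6, the basolateral organic anion transporter, fell by 1.09 on the log2 scale and was the only 1 of the 15 to pass the threshold with the fold limit. Kap, the most abundant marker, was at 14270 to 17370 CPM in TG+ and 16790 to 17480 CPM in TG- mice. In bulk cortex, fewer cells of a type and less RNA per cell cannot be told apart, and the part of the proximal tubule markers in the Car4 value was not tested.

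Car12, a transmembrane enzyme, was at 352, 328 and 372 CPM in TG+ mice and at 408.1, 408.0 and 431 CPM in TG- mice. All TG+ mice lay below all TG- mice, by a small margin, with means of 351 ± 22.0 and 416 ± 13.3 CPM (SD, n = 3). Its log2 fold change of -0.24 (95% interval -0.39 to -0.10) had an adjusted p of 0.02441 with edgeR and did not pass, and with DESeq2 the adjusted p was 0.003148. Car14, a transmembrane enzyme of the proximal tubule, was at 80.8, 107 and 88.7 CPM in TG+ and at 93.6, 118 and 94.9 CPM in TG- mice, and the groups overlapped. The interval of its log2 fold change ran from -0.43 to 0.14 (adjusted p = 0.4266). Car15, the other lipid-anchored member, was at 60.4, 75.5 and 60.9 CPM in TG+ and at 71.9, 71.2 and 60.0 CPM in TG- mice. The groups overlapped nearly completely, with an interval of -0.29 to 0.20 around a log2 fold change of -0.05 (adjusted p = 0.7969). The annotation places Gm20518 on the same strand as Car15, with 1253 shared exon bases, and Aph1a on the strand opposite to Car14, with 445. The counts of Car15 are therefore uncertain, since the counting could have split its reads with Gm20518, which was at 98.1 to 117 CPM in TG+ and 111 to 122 CPM in TG- mice. Aph1a was below 1 CPM in every mouse. Since the handling of strand is not given, the counts of Car14 are uncertain too.

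Among the cytosolic members, Car2 and Car3 were both higher on average in TG+ mice, with very different spread. Car2 (ENSMUSG00000027562) encodes the abundant, fast cytosolic enzyme of proximal tubule and intercalated cells. It was at 422, 402.5 and 444 CPM in TG+ and at 342, 308 and 326 CPM in TG- mice. Every TG+ mouse was above every TG- mouse. The means were 423 ± 20.8 and 325 ± 17.2 CPM (SD, n = 3), and the log2 fold change was 0.38 (SE 0.06, 95% interval 0.23 to 0.53, adjusted p = 0.004629 by edgeR), which is 1.30-fold. The adjusted p rose above 0.01 with kidney 1 alone (0.01358) and without 43-29, 43-50, 43-75 or 43-76, where it lay between 0.01627 and 0.02519. The 11 intercalated cell markers had a median log2 fold change of 0.11, and of these the water channel Aqp6 was past the adjusted p alone, higher in TG+. Slc26a4, the most abundant of them, was at 84.6 to 109 CPM in TG+ and 90.3 to 104 CPM in TG- mice, with overlap. The summed level of the 11 markers was 509.5 to 572 CPM in TG+ and 480 to 529.6 CPM in TG- mice, and their part in the Car2 value was not tested.

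**Figure D2:**
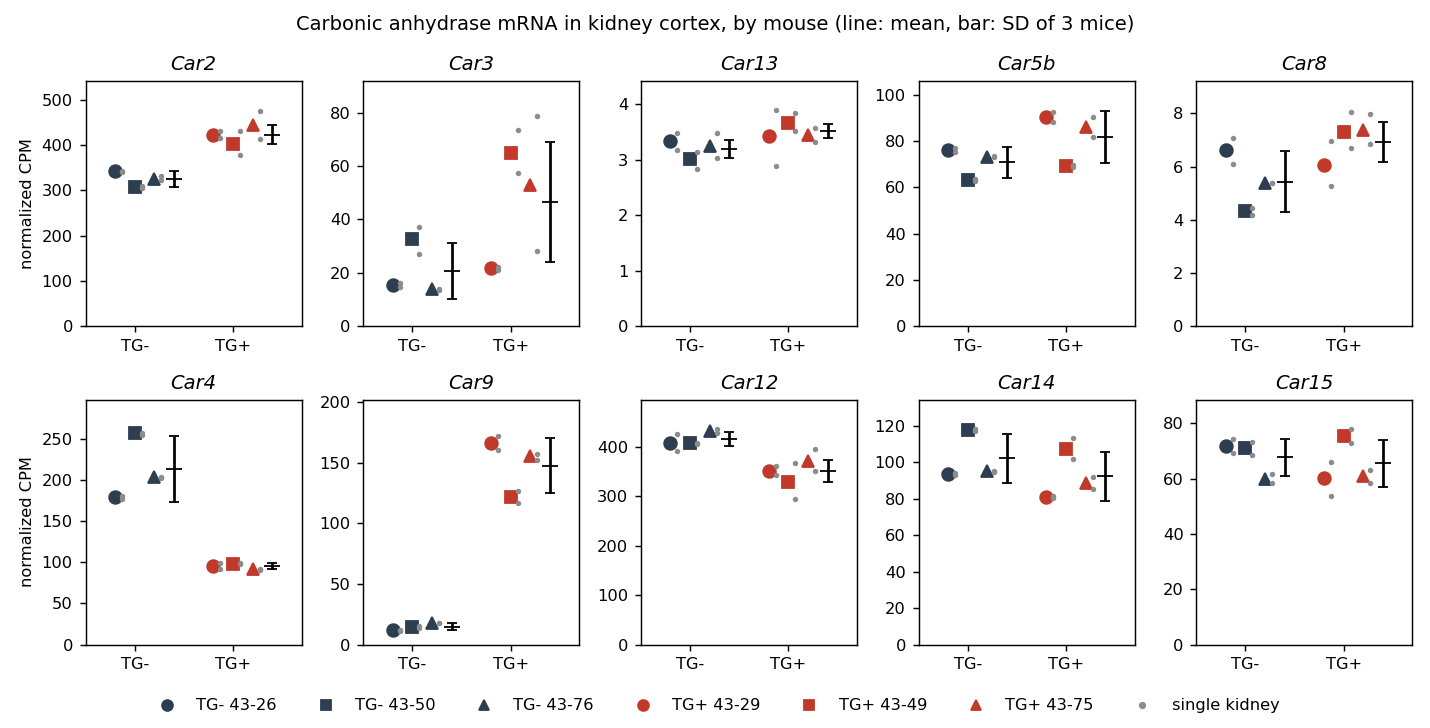
Normalized CPM of the 10 members in each mouse (large symbols), in each of its 2 kidneys (small grey points), with mean and SD of the 3 mice per group; each panel has its own axis from 0. Car2, Car4, Car9, Car12 and Car13 separate the groups of mice, and Car3 spreads most within a group.

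Car3 (ENSMUSG00000027559) encodes a cytosolic enzyme of low activity that is abundant in skeletal muscle and adipocytes. It was at 21.6, 64.9 and 53.0 CPM in TG+ and at 15.4, 32.6 and 13.7 CPM in TG- mice, and the groups overlapped, since TG- mouse 43-50 was above TG+ mouse 43-29. The log2 fold change was 1.17 (SE 0.44, 95% interval 0.16 to 2.19, adjusted p = 0.08835 by edgeR) and did not pass. Within mouse 43-75, kidney 1 had 28.3 CPM of Car3 and kidney 2 had 78.7 CPM, a 2.78-fold gap. For the other 9 members the largest gap between the kidneys of a mouse lay between 1.08-fold (Car4) and 1.35-fold (Car13).

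Adipocyte genes varied between the same kidneys. The summed level of 6 of them (Adipoq, Plin1, Cfd, Lep, Cidec and Retn) was 26.2 and 38.9 CPM in the kidneys of 43-49, 1.21 and 39.6 CPM in those of 43-75, and 17.7 and 2.79 CPM in those of 43-50. In the other 6 kidneys the sum was between 0.0404 and 0.240 CPM, and Adipoq, the gene of the fat hormone adiponectin, had 0 reads there. Car3 in those 6 kidneys was 21.0 and 22.1 CPM in TG+ mouse 43-29, 14.6 and 16.1 CPM in TG- mouse 43-26, and 13.9 and 13.6 CPM in TG- mouse 43-76. The 4 kidneys with the most Car3 were the same 4 that had 20 or more reads of Adipoq. Without those 4 kidneys, a choice made after seeing the data that leaves 3 TG+ kidneys of 2 mice and 5 TG- kidneys of 3 mice, the log2 fold change of Car3 was 0.43 (adjusted p = 0.3051). Of these 4 kidneys 3 are TG+, and all 4 were the highest in Car3, so leaving them out had to lower its fold change, and the part of adipocytes in the Car3 value was not tested. In the same fit Car9 and Car4 kept their calls, at 3.49 and -1.19, and Car2 stayed past the adjusted p alone, at 0.35. Fabp4, which is made in adipocytes and also in endothelium, was the most abundant of the 7 adipocyte markers. It was at 29.1 to 44.5 CPM in TG+ and 20.3 to 21.3 CPM in TG- mice, and it was the 1 adipocyte marker past the adjusted p alone. The summed level of all 7 was 29.3 to 76.7 CPM in TG+ and 21.3 to 31.4 CPM in TG- mice. Of 7 skeletal muscle markers only 3 had enough reads to be tested and none passed, and their summed level was 4.96 to 5.57 CPM in TG+ and 2.80 to 7.37 CPM in TG- mice, most of it Acta1.

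**Figure D3:**
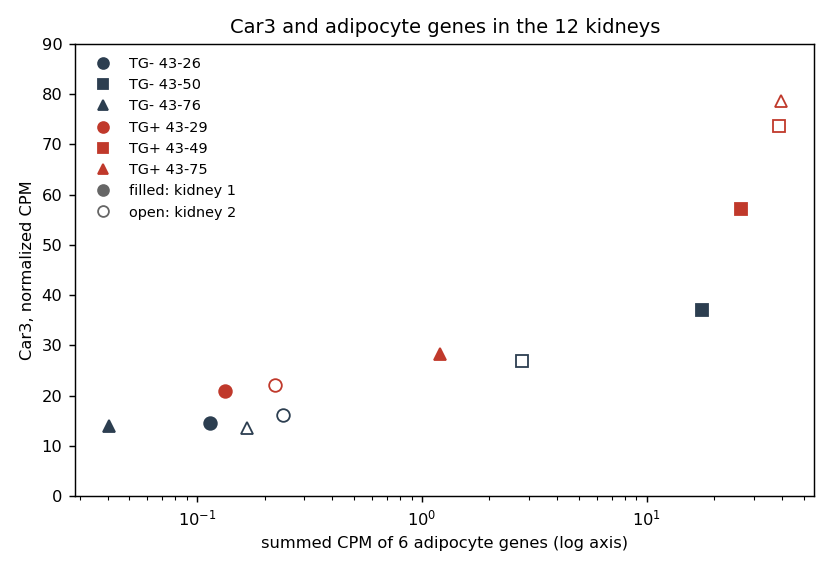
Car3 (normalized CPM) against the summed CPM of 6 adipocyte genes (log axis) in the 12 kidneys. The 4 kidneys at the upper right, both of 43-49, kidney 2 of 43-75 and kidney 1 of 43-50, have between 37.1 and 78.7 CPM of Car3, and the other 8 have at most 28.3 CPM.

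Car13, the third cytosolic member, was read thinly, with 159 to 208 reads per mouse. It was at 3.44, 3.67 and 3.45 CPM in TG+ and at 3.33, 3.01 and 3.25 CPM in TG- mice, so that the groups were adjacent without overlap. The log2 fold change was 0.14 with an interval of -0.12 to 0.39 (adjusted p = 0.4041). Car13, Car3 and Car2 lie on the + strand of chromosome 3 between 14641727 and 14900770 in GRCm38, and only Car2 of the 3 passed the adjusted p alone.

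The mitochondrial member Car5b, whose enzyme supplies bicarbonate inside mitochondria, was at 90.4, 69.0 and 86.1 CPM in TG+ and at 76.1, 63.2 and 73.3 CPM in TG- mice. The groups overlapped through 43-49. Its log2 fold change was 0.21, with an interval of -0.05 to 0.47 (adjusted p = 0.2126 by edgeR). This is the member with 5 core matches upstream. Car8, the inactive relative, was at 6.05, 7.32 and 7.39 CPM in TG+ and at 6.61, 4.33 and 5.38 CPM in TG- mice, again with overlap. The interval of its log2 fold change ran from -0.03 to 0.73 (adjusted p = 0.154).

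To compare levels between genes, reads must be set against transcript length, and the order of the members depended on the lengths used. By the RPKM that the authors deposited (reads scaled by gene length and library size, here the mean of a mouse's kidneys), Car2 was by far the highest member. It was at 234 ± 11.9 RPKM in TG+ and 184 ± 9.77 RPKM in TG- (SD, n = 3), or 58.6% and 52.8% of the summed RPKM of the 10 members. Car12 was next, at 33.6 and 40.7 RPKM. In TG+ mice the order went on with Car3, Car15, Car14, Car9 and Car4, and from Car12 to Car4 each member overlapped the next. Car9 stood at 19.0 ± 2.99 RPKM, the sixth of the 10, and Car4 at 17.6 ± 0.614 RPKM, the seventh. In TG- mice Car4 stood at 40.5 ± 7.52 RPKM, the third, overlapping Car12, and Car9 at 1.94 ± 0.392 RPKM, the eighth, overlapping Car8. Car8 and Car13 were lowest in both groups, between 1.14 and 1.92 RPKM in any mouse.

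With the exon lengths of the GENCODE annotation (CPM per kilobase of exon), the levels of Car9 and Car4 stood higher against the other members, since the deposited RPKM is 0.301 and 0.369 of that level for these genes, compared with 1.35 for Car2 and 1.90 for Car3. On this scale Car9 was second in TG+ mice at 64.1 ± 10, above the 48.3 ± 1.81 of Car4 without overlap, and in TG- mice Car4 was second at 108 ± 20.3 and overlapped Car2 at 134 ± 7.11. Car2 was first in both groups, with 40.0% of the summed level in TG+ and 33.7% in TG-.

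The make-up of the cell surface members changed in the same direction on both scales. Car9 made up 16.0% ± 2.87 of their summed RPKM in TG+ and 1.42% ± 0.301 in TG-, while Car4 made up 14.7% ± 0.451 and 29.4% ± 3.10 (SD, n = 3). With the annotation lengths, the share of Car9 was 27.9% ± 4.22 in TG+ and 2.61% ± 0.535 in TG-, and that of Car4 was 21.1% ± 0.872 and 44.0% ± 3.52. The shares of Car12, Car14 and Car15 overlapped between the groups on both scales, for example with means of 28.2% and 29.9% for Car12 by RPKM. The sum over the 5 surface members was 116 to 122 RPKM in TG+ and 129 to 149.8 RPKM in TG- mice, without overlap, but with the annotation lengths the sums overlapped, at 228 to 230.3 and 224 to 274 CPM per kilobase. The cytosolic sum was higher in every TG+ mouse on both scales, at 248 to 283 against 195 to 205 RPKM, and Car2 made up most of it.

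**Figure D4:**
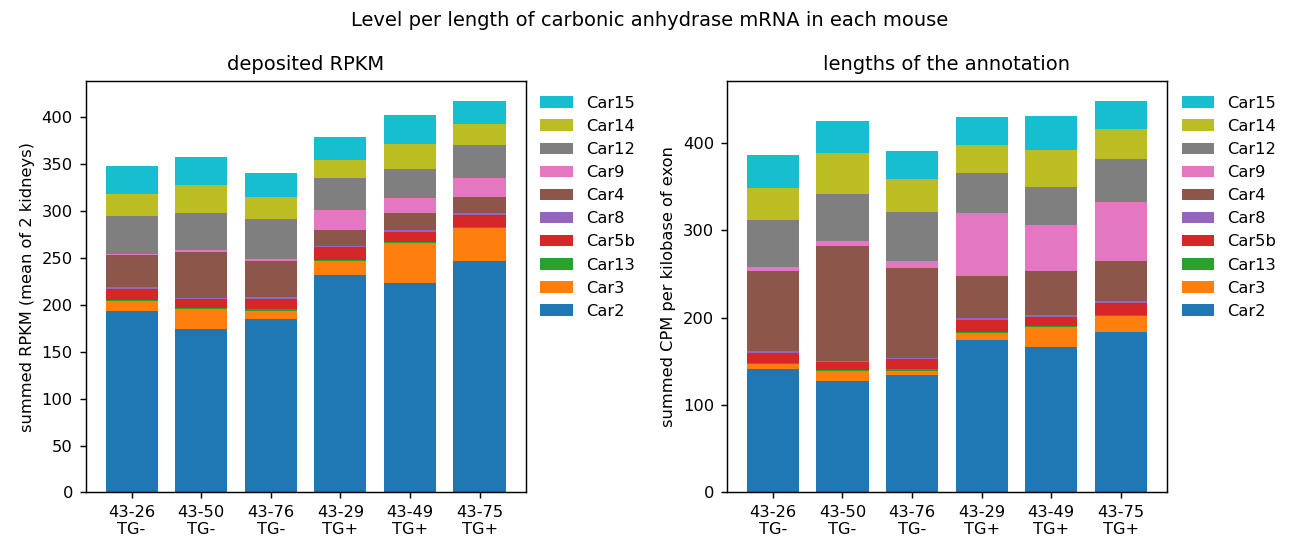
Level per length of the 10 members stacked for each mouse, by deposited RPKM (left) and by CPM per kilobase of annotated exon (right). The Car9 band is wide only in the 3 TG+ mice, the Car4 band is widest in the 3 TG- mice, and both bands are wider on the right.

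The 6 other carbonic anhydrase genes of the table were read thinly or hardly at all. Car1, the enzyme of red blood cells, Car6, a secreted enzyme, and Car10, an inactive relative, had 0 to 6 reads per mouse and were not tested. Car5a, the mitochondrial enzyme known from liver, was at 0.283 to 0.635 CPM in TG+ and 0.565 to 0.858 CPM in TG- mice (adjusted p = 0.1451 by edgeR). Car7, with 105 to 163 reads per mouse, and Car11, with 52 to 108, had log2 fold changes of 0.20 and 0.38, with adjusted p of 0.335 and 0.2616, and none of these 3 tested genes passed.

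The genes that carry the substrates and products of these enzymes were counted by function. Of 62 genes in 5 lists, 61 were tested, since Rhbg was not analysed here. With the threshold used above, 6 of the 61 were higher and 0 were lower, against 3.77% and 0.211% of all genes tested, so that a count of 0 lower is near the background. The genes higher include Slc26a3 and Slc26a9, which had 0 to 3 reads per TG- mouse. These genes met the filter on low counts through the TG+ mice alone, so the count of 6 is not read as a result about the lists. The number higher was 3 without mouse 43-75 and 3 with kidney 1 only. No gene was lower by DESeq2 either, and at an unadjusted p below 0.05 by edgeR 10 had a log2 fold change below 0 and 8 above 0. With the adjusted p alone, 7 were higher and 3 lower, against 7.91% and 4.25% of all genes, so that neither count stands far from the background. The median log2 fold change was 0.09 for 17 genes listed as bicarbonate transporters, -0.02 for 9 sodium-proton exchangers and -0.11 for 24 subunits of the vacuolar proton pump. It was 0.38 for 6 genes of ammonia production and transport, and 0.62 for 5 genes of proton-coupled lactate transport.

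In the lactate list, Slc16a3 and Bsg were higher. Bsg, the chaperone that brings lactate transporters to the plasma membrane, was at 879, 766 and 839.9 CPM in TG+ and at 367, 413 and 368 CPM in TG- mice. The groups were far apart, with a log2 fold change of 1.11 (95% interval 0.94 to 1.28, adjusted p = 7.807e-05 by edgeR). Slc16a3, the lactate exporter MCT4, was at 98.1 to 150 CPM in TG+ and 1.02 to 1.93 CPM in TG- mice. Slc16a7, the lowest of this list by log2 fold change at -0.06, overlapped between groups.

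Of the ammonia genes, Slc38a3, the glutamine transporter of the proximal tubule, was at 14.1, 22.6 and 16.9 CPM in TG+ and at 9.77, 7.72 and 7.98 CPM in TG- mice. Its log2 fold change was 1.08 (95% interval 0.67 to 1.48, adjusted p = 0.004265 by edgeR). This call ended without 43-50, 43-75 or 43-76 (adjusted p of 0.01864, 0.01379 and 0.02267), with kidney 1 only (0.02949), and without 43-49, where the log2 fold change of Slc38a3 was 0.86. Glud1 was lowest of this list at -0.13, with an adjusted p of 0.1626. Pck1, the most abundant of the list, was at 1668 to 3185 CPM in TG+ and 1041 to 2015 CPM in TG- mice, with overlap.

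The bicarbonate transporter list holds genes of the Slc4 and Slc26 families, and whether each of them carries bicarbonate was not examined. In this list, Slc4a11 was at 3.28, 4.95 and 3.64 CPM in TG+ and at 1.44, 0.928 and 1.64 CPM in TG- mice. The log2 fold change of Slc4a11 was 1.57 (95% interval 1.01 to 2.14, adjusted p = 0.003409 by edgeR). The call of Slc4a11 ended without 43-26 or 43-75 (adjusted p of 0.01051 and 0.01161) and with kidney 1 or kidney 2 only (0.02214 and 0.02134). Slc26a3, a chloride-bicarbonate exchanger known from the gut, and Slc26a9, a relative known from the stomach, passed the test at the edge of detection. Slc26a3 had 50, 41 and 28 reads in the TG+ mice and 1, 3 and 0 in the TG- mice, and Slc26a9 had 12, 16 and 16 reads against 2, 0 and 0, so no fold change is given for either. The call of Slc26a9 ended without 43-49, 43-50, 43-75 or 43-76, with an adjusted p between 0.01231 and 0.01852, and with 1 kidney only it had too few reads to be tested. Slc26a1, a sulfate and bicarbonate exchanger of the basolateral membrane, fell by 0.78 on the log2 scale (adjusted p = 0.0002969) and was the lowest of the list. Slc4a4, the basolateral sodium-bicarbonate cotransporter of the proximal tubule and the most abundant of the list, was at 1684 to 1884 CPM in TG+ and 1900 to 1944 CPM in TG- mice (adjusted p = 0.1662).

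The apical sodium-proton exchanger Slc9a3, which secretes protons into the proximal tubule lumen, was at 53.4, 60.3 and 60.5 CPM in TG+ and at 77.1, 74.4 and 92.7 CPM in TG- mice. All TG+ mice were lower, and the log2 fold change was -0.49 (95% interval -0.70 to -0.27, adjusted p = 0.008281 by edgeR), the lowest of the 9 exchangers. Slc9a9, the highest of them at 0.61, did not pass (adjusted p = 0.02037). Among the proton pump genes, only Atp6v0a4, a membrane subunit of the kidney pump, passed the adjusted p alone, at -0.32 (adjusted p = 0.003605). The highest was Atp6v1g2 at 0.18. Of the 24 subunits 20 had a log2 fold change below 0, but with library size as the only scaling 10 did, a scaling that moves the median of all genes tested from 0.01 to 0.13.

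**Figure D5:**
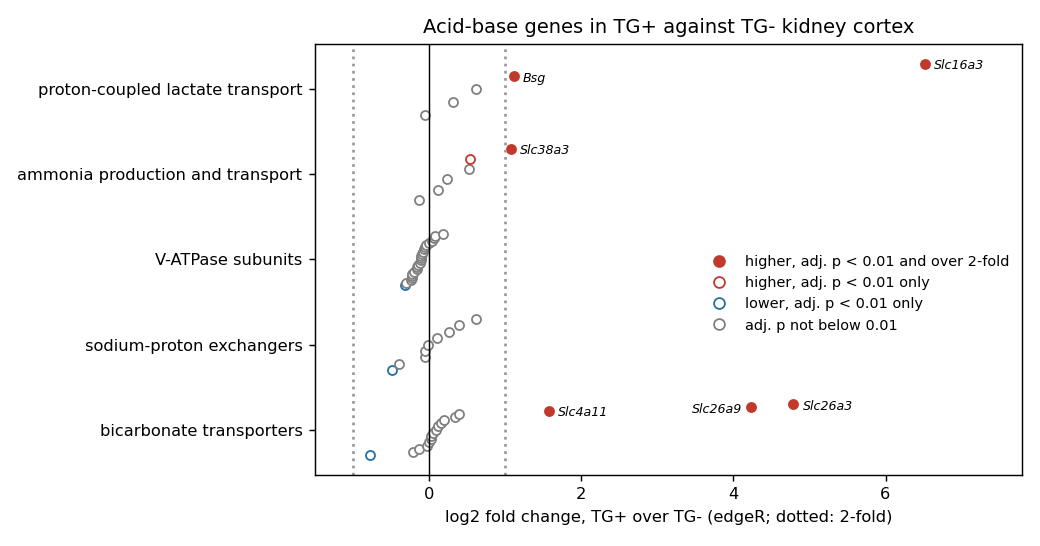
Log2 fold change, TG+ over TG-, of the 61 tested genes of acid-base handling in 5 lists (edgeR, 3 mice per group; dotted lines mark 2-fold). The 6 named genes passed both limits, and the positions of Slc26a3 and Slc26a9 rest on 0 to 3 reads per TG- mouse.

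Markers of other cells in the cortex slice were read beside these values. The endothelial list was higher in TG+, with 6 of 7 genes past the adjusted p alone against 7.91% of all genes tested, a median log2 fold change of 0.70, and a summed level of 552 to 594 CPM in TG+ against 321 to 422 CPM in TG- mice (most abundant, Eng). In the immune list 4 of 6 genes were past the adjusted p alone, all higher, against the same 7.91%, with a median of 0.91 and a summed level of 76.2 to 95.5 CPM against 32.4 to 63 CPM (most abundant, Lyz2). The 8 loop and distal tubule markers, led by Umod, and the 6 principal cell markers, led by Hsd11b2, had medians of 0.04 and 0.11, and none passed. Of the red blood cell genes, 4 of 7 were in the table, and Alas2, the most abundant, was past the adjusted p alone, higher in TG+, with a summed level of the list of 9.12 to 11.1 CPM against 5.59 to 6.29 CPM. The part of these cells in the values of the carbonic anhydrase genes was not tested.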

How the data were processed

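Kidney cortex RNA of 3 TG+ and 3 TG- mice was sequenced as 51-bp single-end reads, 2 libraries per mouse. The authors deposited 1 table of 37681 Ensembl genes with raw read counts per library, without normalization, and RPKM per library, scaled by a method its header calls BUQ after 1 was added to each count. The build was mm9 by the submitters' processing notes, and the paper's methods name the Tuxedo tools. The aligner, counting program and handling of strand are not given in the sources used here. Columns of the authors' own fold changes, p-values and q-values were not used.

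Counts of the 2 kidneys were summed per mouse. In R 4.3.3, edgeR 4.0.16 (with limma 3.58.1) filtered genes by filterByExpr, scaled by TMM and ran its quasi-likelihood test. The p-values of 19399 genes were adjusted by the Benjamini-Hochberg method. The exact permutation test used the 20 assignments of 3 against 3 mice on log2 (CPM + 0.5). The totals of 48052131 to 60506785 reads per mouse give even the thinnest member 159 reads. The procedure was also run on simulated data, and the outcome is not used here as support for any call. Symbols, positions and exon lengths came from GENCODE M21 (GRCm38), matched by identifier for 32642 genes; upstream sequences came from RefSeq (GRCm38.p6). Alternatives were DESeq2 1.42.0, upper-quartile scaling, library size alone, no filter, 1 kidney only, a block for mouse pairs, leaving out each mouse, other limits, and annotation lengths. Named genes were all family genes in the table, list genes past the threshold, the highest and lowest log2 fold change of each list, and the most abundant gene of each marker list; Slc4a4, Pck1, Slc22a6, Aqp6 and the 6 adipocyte genes were added after their values were seen, and some list genes are not reported here by name. The members and lists were chosen with earlier results of these data known.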

Additional observations from a re-analysis of the deposited data

How the results depend on the processing

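Of 140 refits of single members (14 alternatives each), 131 kept the direction and the side of the adjusted p limit. Car9 stayed between 3.19 and 3.49 and Car4 between -1.28 and -1.01 on the log2 scale, past the limit in all 14. At a fold limit of 4 or 0.25, 0 members were called lower. With the adjusted p alone, 1 member was higher with kidney 1 only and 1 with a limit of 0.001, and 1 to 2 when each mouse was left out in turn, since Car2 was lost without 43-29, 43-50, 43-75 or 43-76. The number lower was 2 with DESeq2 and 2 with a limit of 0.05, through Car12. In 3 refits a fold change near 0 changed sign, namely Car13 with kidney 1 only (-0.0033) and Car15 with library size alone (0.08) and without 43-29, where leaving out each mouse gave -0.16 to 0.00087. Car3 ranged from 0.43 to 1.67.

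Of the acid-base genes, 6 of which were called higher, 3 were called with kidney 1 only, 3 with a limit of 0.001, 3 at a fold limit of 4 or 0.25, and 3 to 6 when each mouse was left out, with 3 without 43-75, where Slc4a11, Slc26a9 and Slc38a3 were lost. Apart from the fewer samples or stricter limits, the cause was not tested. Shares by annotation lengths stand in the report. The deposited table's name sets mice in 3 pairs. Deviations from the group mean correlated at 0.345, 0.298 and -0.0186 within these pairs, and between -0.347 and 0.0268 for mice of unlike pairs. Deviations from a mean of 3 mice depend on each other, so these values do not establish the pairing. With a replicate block for these pairs the counts were the same, with 1 member higher and 1 lower. The adjusted p by edgeR with this block was 0.01692 for Car3, 0.03115 for Car5b and 0.07271 for Car14. With 3 mice per group, the interval of Car8 reaches 0.73 and that of Car3 reaches 2.19. Differences of those sizes were therefore not excluded for these genes.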
